A study of Mus musculus with 6 samples.

Results

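The mouse microRNAs mmu-miR-99a, mmu-miR-99b, mmu-miR-100, mmu-miR-125a-5p and mmu-miR-125b-5p (below without the species prefix) were followed across single-colour Agilent arrays. A microRNA (miRNA) is a short RNA that silences messenger RNAs with matching sites. They were chosen by name, as the probes whose miRNA name in the array design, without its version tag, was that of one of these miRNAs. They are 5 of the 650 miRNAs on the array, of which 611 are from mouse. All samples came from EB3, an embryonic stem (ES) cell line derived from 129/Ola mice. The 3 samples titled Activin (-), called control here, were compared with 3 titled Activin (+), called activin here. Activin is a TGF-beta-type signalling protein used to steer ES cells towards mesendoderm. One culture description stands in the labels of all 6 samples. It gives 3 days of embryoid bodies and 15 further days on gelatin, both with Activin at 10 ng/ml, and the design text gives a harvest on day 18. Hence it is not known here if the control was an undifferentiated culture or one differentiated with Activin left out. Separate cultures for the samples within a group are not stated either, so p-values measure only the spread between these samples, and that spread may be technical.

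A miRNA finds its targets mainly through its seed, bases 2 to 8 from the 5′ end. The miR-99/100 seed family is an ancient one whose known targets include the mTOR kinase. The miR-125 family is the vertebrate counterpart of worm lin-4 and is known to repress Lin28, the RNA-binding protein that blocks let-7 maturation. In mammals the genes of both families lie beside let-7 genes in shared clusters, and these miRNAs are known to build up as cells leave pluripotency.

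The mature sequences of all 5 members and of 4 relatives are shown because the seed defines the families and because near-identical members may be hard for a hybridisation array to tell apart. They are RefSeq entries of GRCm38.p6, 5′ to 3′, with the seed in capitals.
miR-99a: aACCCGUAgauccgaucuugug
miR-100: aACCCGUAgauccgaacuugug
miR-99b: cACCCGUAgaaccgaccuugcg
miR-125a-5p: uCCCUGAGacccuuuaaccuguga
miR-125b-5p: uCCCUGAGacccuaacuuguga
miR-351: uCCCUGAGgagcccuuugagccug
miR-10a: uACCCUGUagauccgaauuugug
miR-10b: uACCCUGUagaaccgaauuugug
let-7c: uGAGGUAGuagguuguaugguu

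Counting positions from the 5′ end, miR-99a and miR-100 differ by a single substitution, U16A, and miR-99b differs from miR-99a at 4 of 22 positions (A1C, U11A, U16C and U21C). miR-125a-5p has 24 bases and miR-125b-5p 22, and they share the first 13 and the last 5. miR-351 has the miR-125 seed, and its first 8 bases are those of both, while 14 of 24 positions differ from miR-125a-5p. miR-10a carries a stretch of 11 bases of miR-100, guagauccgaa, at position 7 instead of 6, so its seed is another. Whether the probes tell these sequences apart was not tested.

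The 5 miRNAs come from 3 clusters. In GRCm38.p6, on the plus strand, miR-99a lies at chr16:77598940-77598961 near let-7c (chr16:77599672-77599693, gene Mirlet7c-1) and a copy of miR-125b-5p (chr16:77646279-77646300, gene Mir125b-2). miR-100 lies at chr9:41531437-41531458 with the Mirlet7a-2 gene and the other copy of miR-125b-5p (chr9:41581940-41581961, gene Mir125b-1), all inside the long non-coding RNA gene Mir100hg. miR-99b (chr17:17830194-17830215), let-7e (chr17:17830366-17830387) and miR-125a-5p (chr17:17830817-17830840) lie together within the span of the protein-coding gene Spaca6. The signal of miR-125b-5p thus sums 2 gene copies, and let-7a and let-7c each also have a gene outside these clusters. The file headers name mm9 for the array design, so these positions belong to the RefSeq entries and not to the files.

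Arrays differed in brightness. The value used to scale each array was 177 intensity units on activin 2 and 249 on control 1, against 427 to 616 on the other 4 arrays. Activin 2 detected 54 mouse miRNAs and control 1 detected 80, against 110 to 119 on the others, and no miRNA spot was saturated. Of the 11 markers of ES and epiblast cells (the miR-290 and miR-302 clusters), 10 were detected on at least 1 array and 4 on all 6. Their summed scaled signal was 6.25 to 16.0 in control and 5.91 to 7.63 with Activin. Of 6 mesenchymal markers 4 were detected on at least 1 array, and their summed scaled signal was 1.77 to 2.50 in control and 2.69 to 2.91 with Activin. Of 4 neural markers 2 were detected on at least 1 array and 0 on all 6, and of 6 epithelial markers 3 and 1. The summed signal of the neural markers was 0.0621 to 0.162 in control and 0.0927 to 0.115 with Activin. That of the epithelial markers was 0.218 to 0.320 in control and 0.225 to 0.414 with Activin. The part of these lists in the results below was not tested, and fewer cells of a type cannot be told apart from less RNA per cell.

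Each member had 2 probes of 10 spots, and a miRNA's value is the mean of both. The dimmer probe of every member was detected on 0 of 6 arrays (detected meaning that more than 0.5 of its unflagged spots were well above background). That of miR-100 still entered its value, at 26.4 intensity units on control 2, with 3 spots well above background, and at -5.07 on activin 2. The brighter probe was detected on all 6 arrays for miR-99a, miR-125a-5p and miR-125b-5p, on 5 for miR-100 and on 2 for miR-99b. The control arrays detected 4, 5 and 4 members and the activin arrays 5, 3 and 4, which overlap. Probes bind with different strength, so no order of the members by level is given, and every comparison is of a miRNA with itself or of a change with another change.

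**Figure D1:**
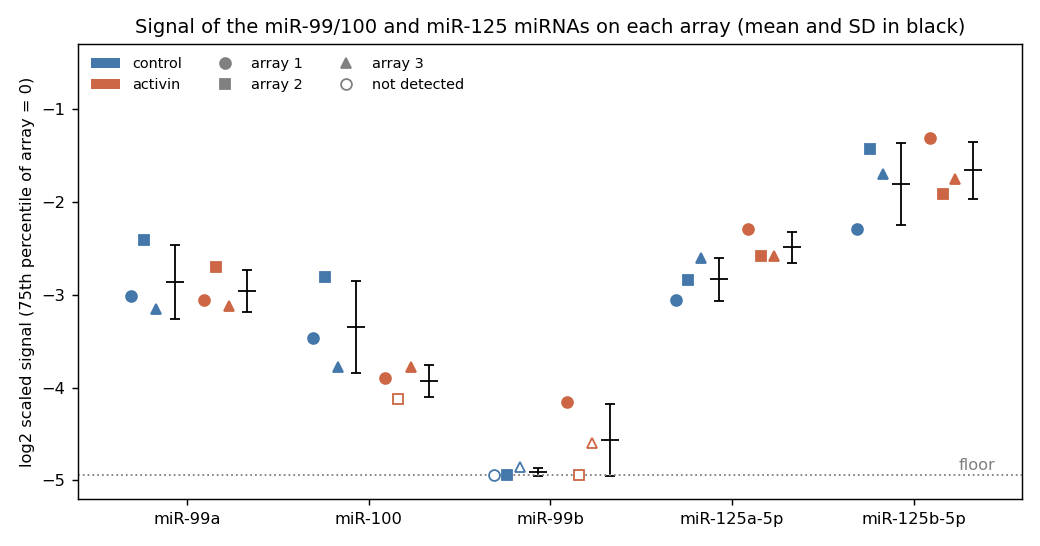
Log2 scaled signal of the 5 miRNAs on each array (vertical axis, where 0 is the array's 75th percentile over probes detected on all arrays), with control in blue, activin in orange, the array number as the symbol, open symbols where the miRNA was not detected, and mean and SD in black (n = 3 each). The groups overlap for miR-99a and miR-125b-5p and meet at array 3 for miR-100. The activin values of miR-125a-5p start just above its highest control value, and miR-99b lies at or near the floor of -4.94.

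No member passed the threshold between control and activin. A limma fit covered the 79 mouse miRNAs that all 3 arrays of control, of activin or of both had detected, and called 1 (1.27% of those tested), miR-302c, which was higher with Activin. It is on the ES and epiblast list, of which it was the 1 of 6 tested miRNAs above 0, with a list median of -0.40. Of the 5 members 4 could be tested, and 0 of 4 were called, with 0 of 4 at an unadjusted p under 0.05, where 11.4% of all tested miRNAs lay. The tested members had 2 log2 fold changes above 0 and 2 below, with a median of 0.03 beside 0.17 over all 79 miRNAs, 63.3% of which were above 0. The members' median was below 0 under all 6 other scalings or backgrounds (-0.43 to -0.05), where the median of all tested miRNAs moved too. Relative to that median it was -0.14 to -0.12 under the 6, beside -0.14 as reported. On leaving out 1 array the members' median ran from -0.14 (without activin 2) to 0.23 (without control 2, beside 0.20 over all). Values below are log2 of scaled signal, in the order of arrays 1 to 3 of a group, and folds are activin minus control.

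miR-100, of the miR-99/100 seed, had the lowest fold of the members. Its mean background-subtracted intensity was 22.6, 87.8 and 31.1 in control and 38.3, 10.2 and 40.5 with Activin. Scaled, it stood at -3.46, -2.81 and -3.78 in control and at -3.90, -4.12 and -3.77 with Activin. Control 2 was well above the other arrays, and the groups met at control 3 and activin 3, which differed only in the third digit. On activin 2, a dim array, 0 of the 7 spots used of its brighter probe were well above background, so that value is at the limit of measurement. The log2 fold change was -0.58 (SE 0.30, 95% interval -1.16 to 0.0032, limma unadjusted p = 0.0513, adjusted p = 0.405), from -3.35 ± 0.49 in control to -3.93 ± 0.17 with Activin (SD, n = 3 each). It ranked 74 of 79 from the highest fold. Its size rested on control 2, without which it was -0.31, and on the summary of probes, since it was -0.40 with the brightest probe, -1.09 with the total signal per miRNA computed by the scanner software and -0.26 with the mean of log2 over probes.

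miR-99a, which differs from miR-100 by U16A, showed little difference. Its intensities were 30.8, 116 and 47.8 in control and 68.4, 27.2 and 63.7 with Activin. Scaled, it stood at -3.02, -2.41 and -3.16 in control and -3.06, -2.70 and -3.12 with Activin, so the activin values lay inside the control range. All 10 spots of its brighter probe were well above background on 4 arrays, with a coefficient of variation over spots of 6.64% to 27.4%, highest on activin 2. The log2 fold change was -0.10 (SE 0.30, interval -0.68 to 0.48, limma adjusted p = 0.887), and without control 2 it turned to 0.13.

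miR-99b, the member with a cytosine at its first base (A1C against miR-99a), was too dim to test. Its intensities were 2.33, 19.7 and 14.7 in control and 32.0, -0.953 and 22.8 with Activin. It was detected on control 2, with 7 of 10 spots of the brighter probe well above background, and on activin 1, with 8 of 8 spots used. Scaled, it was at the floor of -4.94 on control 1, control 2 and activin 2, and at -4.86 on control 3, -4.16 on activin 1 and -4.60 on activin 3. No fold is given, since each group measured it on 1 of 3 arrays.

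miR-125a-5p, a gene neighbour of miR-99b with the miR-125 seed, had the highest fold of the members. Its intensities were 29.8, 86.1 and 70.2 in control and 116, 29.5 and 92.4 with Activin. Scaled, it stood at -3.06, -2.84 and -2.60 in control and -2.30, -2.59 and -2.58 with Activin. All activin arrays were above all control arrays, though the gap between control 3 and activin 2 was narrow. It was the 1 of 4 tested members whose groups did not overlap, where 17.7% of all tested miRNAs did not. The log2 fold change was 0.35 (SE 0.29, interval -0.23 to 0.93, limma adjusted p = 0.614), from -2.83 ± 0.23 to -2.49 ± 0.17, and it moved with the processing. Scaling by the median or by the 75th percentile of all probes gave 0.19, and it was 0.12 with quantile scaling, 0.07 with spike-in scaling, 0.18 with the mean of log2 over probes, and -0.26 with normexp background. Without activin 2 it was 0.23, and without control 3 it was 0.46.

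miR-125b-5p, the other miR-125 miRNA and the product of 2 genes, varied more among control arrays than between groups. Its intensities were 50.6, 228 and 131 in control and 229, 47.0 and 165 with Activin. Scaled, it stood at -2.30, -1.43 and -1.70 in control and -1.32, -1.91 and -1.75 with Activin. Control 1 was the lowest and activin 1 the highest. The log2 fold change was 0.15 (SE 0.30, interval -0.43 to 0.74, limma adjusted p = 0.813), which lay at the median of all tested miRNAs and turned below 0 under 4 of 6 other scalings and backgrounds. Replicate spots were tight for this miRNA, with a coefficient of variation of 3.94% to 12.6% on its brighter probe, far under the spread between arrays of 1 group.

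**Figure D2:**
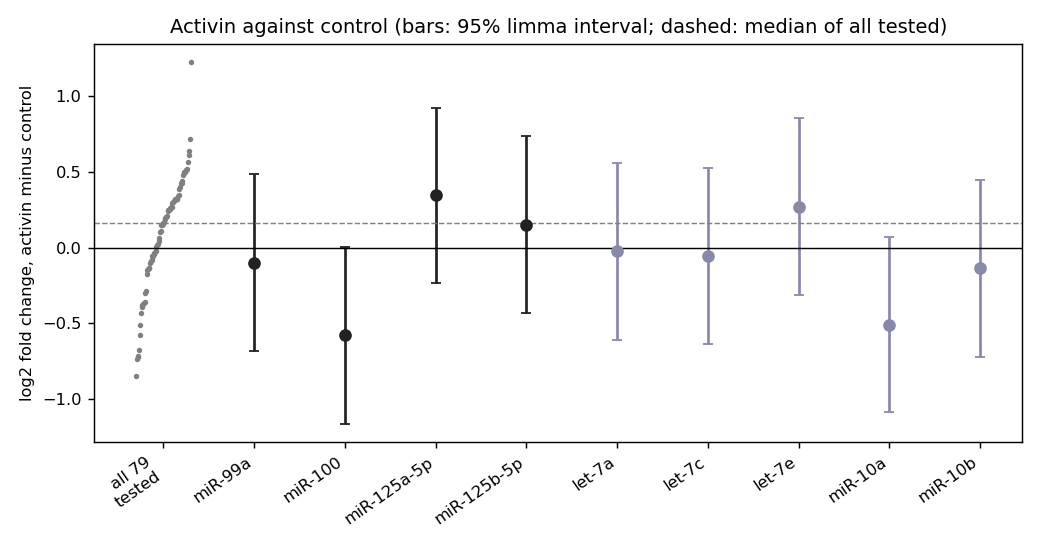
Log2 fold change of activin over control for the 4 tested members (black) and 5 tested relatives (blue-grey), with 95% limma intervals, beside all 79 tested miRNAs as grey dots in rank order. Every interval shown includes 0, and that of miR-100, from -1.16, reaches it only at its upper end.

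The intervals of the members, as folds, run from 0.446 to 1.00 times control for miR-100, from 0.623 to 1.40 times control for miR-99a, from 0.850 to 1.90 times for miR-125a-5p and from 0.740 to 1.66 times for miR-125b-5p. limma pooled the variances almost fully (194 prior degrees of freedom), so SEs of all 79 miRNAs lay between 0.293 and 0.310 and carry little of the spread particular to a member. Scaling also moved the centre, with a median log2 fold change of all tested miRNAs of 0.17 here and of -0.31 to 0.09 under 6 other scalings or backgrounds. Relative to that median miR-100 stood at -0.75 (-0.94 to -0.34 under the 6), miR-99a at -0.26 (-0.35 to -0.26), miR-125a-5p at 0.18 (0.05 to 0.18) and miR-125b-5p at -0.01 (-0.01 to 0.11).

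The seed families were then set against each other within each array. The family difference was 0.59 as reported, 0.49 with no scaling and 0.74 with quantile scaling. miR-99a minus let-7c stayed at -0.04 with no scaling, median scaling and spike-in scaling, and moved to -0.15 with quantile scaling. With no scaling the fold of miR-100 rose from -0.58 to -0.46, while that of miR-99a fell from -0.10 to -0.17. Those of miR-125a-5p and miR-125b-5p also fell, from 0.35 to 0.27 and from 0.15 to 0.08. Why miR-100 moved the other way was not tested. Deviations were averaged over the tested members of each family, relative to the mean of each miRNA in control. For miR-99a and miR-100 the mean deviation was -0.13, 0.50 and -0.36 in control and -0.37, -0.31 and -0.34 with Activin. For miR-125a-5p and miR-125b-5p it was -0.36, 0.19 and 0.17 in control and 0.52, 0.07 and 0.16 with Activin. The activin arrays were close together for the miR-99/100 mean, and the control arrays spread widely in both families. The 2 miRNAs alone were less close, with activin SDs of 0.23 for miR-99a and 0.17 for miR-100. On activin 2 miR-99a had its highest activin value (-2.70) and miR-100 its lowest (-4.12, not detected), which offset each other. The mean also joins unlike folds, -0.10 for miR-99a and -0.58 for miR-100. The miR-125 family minus the miR-99/100 family was -0.22, -0.31 and 0.53 in control and 0.89, 0.38 and 0.50 with Activin, a difference of 0.59 between group means. Control 3 lay within the activin range, so the groups overlapped. The difference was above 0 in all 32 alternatives, from 0.29 to 0.89, and was 0.85 without control 3. These are not independent checks. The difference was again 0.59 with median scaling, spike-in scaling, no filter, the software detection call, the series table and the replicate block. Left-out arrays were counted under 2 filters with equal values. Among miRNAs detected on all 6 arrays, which leaves out miR-100, the difference was 0.35.

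Of the 6 pairs of tested members, 2 had groups that did not overlap, where 22.7% of all 3081 pairs of tested miRNAs did not, and the pairs are described without a test. For the near-identical miR-99a and miR-100 the log2 difference within an array, relative to its control mean, was -0.04, -0.09 and 0.13 in control and 0.35, 0.93 and 0.17 with Activin. All 3 activin arrays were above all 3 control arrays, with a narrow gap from 0.13 to 0.17. The difference between means was 0.48, with SDs of 0.11 in control and 0.40 with Activin (n = 3 each), and it was 0.28 with the brightest probe and 0.29 with no scaling. The control arrays held miR-99a and miR-100 in a nearly constant proportion although each miRNA alone varied among them. Activin 2, where miR-100 was not well above background, had the largest value, and without it the difference was 0.26 with groups still apart. Groups stayed apart in 18 of 20 alternatives, the exceptions being normexp background (0.05) and kept outlier spots (0.42). Not all of these could have failed. Leaving out arrays cannot make separated groups overlap, and median scaling, spike-in scaling, the software detection call and the series table repeated the reported 0.48.

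The other such pair was miR-100 and miR-125a-5p. Their difference relative to its control mean was 0.12, 0.54 and -0.66 in control and -1.08, -1.02 and -0.68 with Activin, again without overlap but with control 3 beside activin 3, a difference of -0.93. Groups stayed apart in 16 of 20 alternatives, not with quantile scaling, no scaling, the mean of log2 over probes or the brightest probe. Here too left-out arrays could not make the groups overlap. Median scaling, spike-in scaling, the software detection call and the series table again repeated the reported value, -0.93. miR-125a-5p against miR-125b-5p gave 0.26, -0.38 and 0.12 in control and 0.04, 0.35 and 0.19 with Activin, which overlapped.

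**Figure D3:**
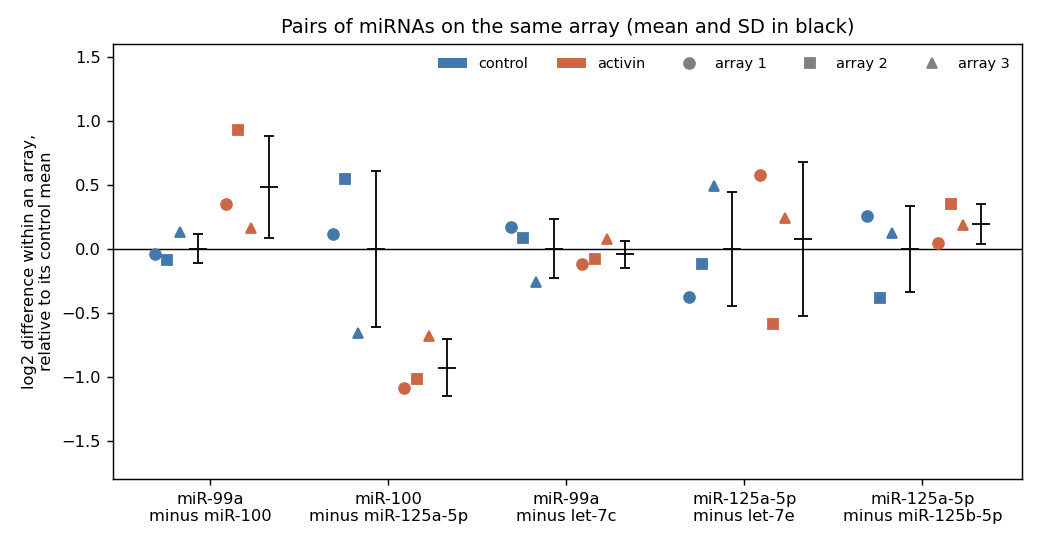
Log2 difference between the miRNAs of a pair on the same array, relative to the mean of control, with control in blue, activin in orange, the array number as the symbol, and mean and SD in black (n = 3 each). For miR-99a minus miR-100 the activin arrays start at 0.17, above the highest control array at 0.13, while miR-99a minus let-7c overlaps between groups.

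A smaller share of the relatives than of the members was detected. Of 12 relatives found on the array, 6 were detected on no array. These were miR-351, which shares the miR-125 seed, and the opposite arms miR-99b*, miR-125b-1-3p, miR-125b-2-3p, let-7a-1* and let-7c-1*, where an opposite arm is the other strand of the hairpin. miR-125a-3p, the opposite arm of miR-125a-5p, was detected only on control 2, with intensities of 14.9 to 26.1 over the 6 arrays. The 5 others, let-7a, let-7c, let-7e, miR-10a and miR-10b, were tested and 0 of 5 passed, where 1.27% of all tested miRNAs did. In limma 0 of 5 had an unadjusted p under 0.05, where 11.4% of all tested miRNAs had. These 5 had 1 fold above 0 and 4 below, where 63.3% of all tested miRNAs were above 0. Their median was -0.06, beside 0.17 over all 79.

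let-7a, let-7c and let-7e, which restrain pluripotency genes and are encoded beside the members, differed little between groups. let-7c stood at -1.56, -0.86 and -1.27 in control and -1.30, -0.99 and -1.57 with Activin, a log2 fold change of -0.06 (SE 0.30, limma adjusted p = 0.941). let-7a had a log2 fold change of -0.03 (adjusted p = 0.956) and let-7e of 0.27 (adjusted p = 0.649), with the highest let-7e value on activin 2 at 0.27. The folds of let-7a, let-7c and let-7e each changed sign in some of the 32 alternatives.

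miR-10a, a Hox cluster miRNA that shares its core with miR-100, had groups that did not overlap, where 17.7% of all tested miRNAs did not. It stood at -3.69, -3.03 and -3.26 in control and -3.78, -3.83 and -3.90 with Activin. Its log2 fold change was -0.51 (SE 0.29, interval -1.09 to 0.07, limma adjusted p = 0.427), close in size to that of miR-100. Like miR-100 it was not detected on activin 2. miR-10b, of the same seed, was at -0.14 (adjusted p = 0.813), also with no detection on activin 2. The difference of miR-100 and miR-10a within an array changed by -0.07 between groups, with overlap. The part of shared bases in these values was not tested. miR-99a shares a stretch of 10 bases with miR-10a, and their difference within an array changed by 0.41. Its groups did not overlap, where 22.7% of all 3081 pairs of tested miRNAs did not.

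Over the 6 arrays the profile of miR-99a was most like that of let-7c, its cluster neighbour. Likeness was the root mean square difference of log2 profiles, each centred on its own mean, among the 52 other mouse miRNAs detected on all arrays. It was 0.15 for let-7c, the smallest of 52, 0.20 for miR-23b and 0.21 for let-7a, against a median of 0.41. miR-99a and let-7c have other seeds and share 5 of 22 bases position by position. miR-125a-5p was closest to miR-21 (0.12) and miR-23a (0.14), beside a median of 0.28, and let-7e of its own cluster ranked 41 at 0.43. miR-125b-5p was closest to miR-199a-3p and miR-24 (both 0.12), beside a median of 0.35, with miR-125a-5p at rank 8 and miR-99a at rank 30. miR-21 and miR-199a-3p are on the mesenchymal list whose summed signal is given above. All miRNAs share the brightness and scaling of an array, so these values are descriptions with no test.

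**Figure D4:**
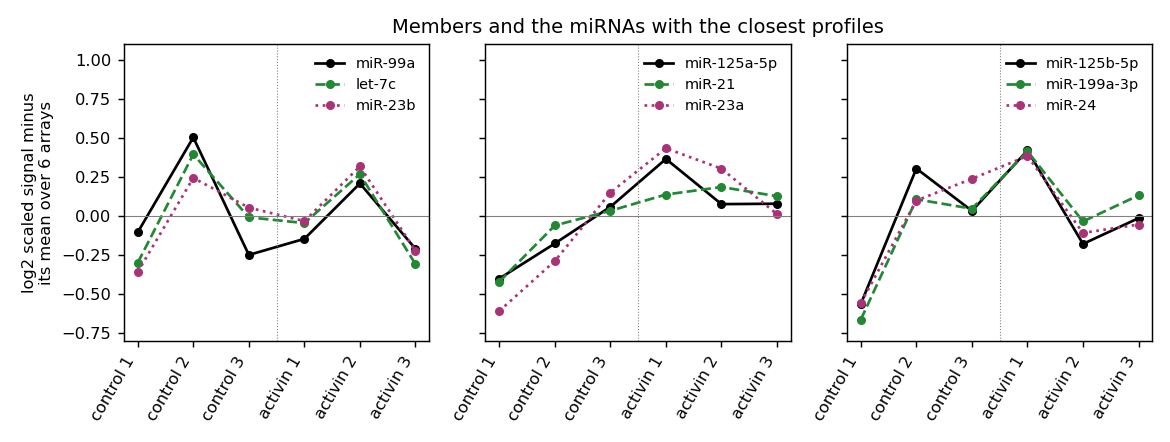
Log2 scaled signal minus its mean over the 6 arrays for the 3 members detected on all of them (black) and the 2 miRNAs with the closest profiles (green and purple), with control arrays left of the dotted line and lines that only join the points. miR-99a and let-7c both peak on control 2 and activin 2, and miR-125b-5p follows miR-199a-3p and miR-24 from a low on control 1 to a high on activin 1.

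Array position moved with the groups in part, since control arrays and activin 1 lay in row 1 of the slide and activin 2 and activin 3 in row 2, per the file names. Column 1 held control 1 and activin 2, the dim arrays, and column 2 control 2 and activin 3. miR-100 differed by -0.66 within column 1 and -0.97 within column 2, and miR-125a-5p by 0.48 and 0.25, the same sign in both. miR-99a differed by 0.31 and -0.71 and miR-125b-5p by 0.38 and -0.32, with opposite signs. Within row 1, activin 1 against 3 control arrays gave -0.55 for miR-100, -0.20 for miR-99a, 0.54 for miR-125a-5p and 0.49 for miR-125b-5p. Within a column the activin array was always in row 2, so row and group cannot be told apart there.

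**Figure D5:**
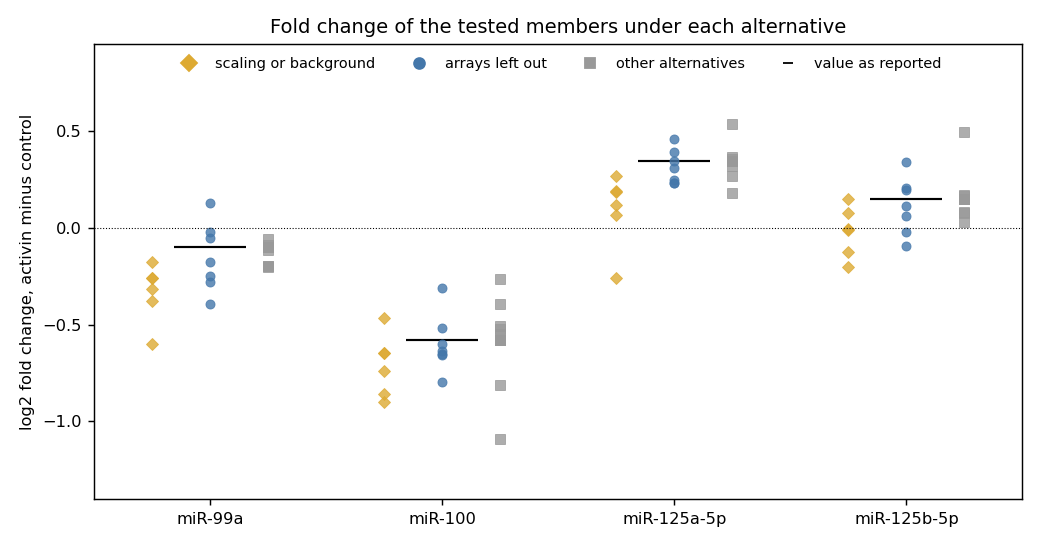
Log2 fold change of the 4 tested members (vertical axis) as reported (black line) and under alternatives, split into scaling or background (yellow diamonds), arrays left out (blue circles) and other alternatives (grey squares). miR-100 stayed below 0 in all 31 alternatives that gave it a value, between -1.09 and -0.26, and miR-125b-5p took both signs. Some alternatives, such as the series table, left the folds unchanged.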

How the data were processed

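Each of 6 samples (100 ng of total RNA, Cy3, per the labels) was hybridised to 1 array of 1 slide. The deposited scanner files hold linear spot intensities. Per the file headers they were made by Feature Extraction (Agilent) 10.7.3.1, while the submitters' processing notes give 10.1.1. They had background subtracted and were not scaled between arrays. The deposited series table holds the same intensities, equal at every spot.

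Background-subtracted intensities without an outlier flag were averaged per probe, and probe means per miRNA. Arrays were scaled to their 75th percentile among the 59 probes that all 6 arrays detected. The result was floored at 0.0326 (the median over arrays of percentile 1 of detected miRNAs) and converted to log2. The 79 tested miRNAs were fitted in R 4.3.3 by lmFit of limma 3.58.1, followed by eBayes, with two-sided tests. Adjusted p-values are Benjamini-Hochberg values over these 79, with a threshold of 0.05. The fit was checked on simulated data with a common spread and changes larger than the folds reported for the members. That check does not show how often changes of the members' size would be called. Precision is limited by 3 arrays per group.

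Members, the list of relatives and the marker lists were chosen with earlier results of these data known, so no p is given for a score over members. Named were all members, relatives detected on at least 1 array, and for each member detected everywhere the 2 miRNAs with the closest profile. Names on the list of relatives were matched to the spelling of the array after the files were seen. Other miRNAs named were chosen after their values were seen. All 5 members matched a RefSeq mature sequence. Alternatives covered scaling, background, probe summary, floor, filter, detection call, outlier spots, left-out arrays, replicate number, slide position and the series table. Same-numbered samples of the groups did not deviate together over the 79 miRNAs, with correlations of -0.64, -0.09 and 0.34, so the numbers were not taken to pair them.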

Additional observations from a re-analysis of the deposited data

How the results depend on the processing

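No tested member passed the limma threshold under any of the 32 alternatives, in which the lowest adjusted p was 0.138, for miR-100 without control 3. miR-100 kept its direction in all 31 alternatives that gave it a value, from -1.09 to -0.26. With no filter, the software detection call, the series table or the replicate block it was again -0.58, so these alternatives add nothing on its direction. Signs turned for miR-125b-5p with the 75th percentile of all probes (-0.0091), median scaling (-0.0066), spike-in scaling (-0.13) and normexp background (-0.20), for miR-125a-5p with normexp (-0.26), and on leaving out arrays for miR-125b-5p (-0.09 to 0.34, at -0.093 without control 1 and -0.021 without activin 1) and miR-99a (-0.39 to 0.13, above 0 without control 2). Left-out arrays on the same 79 miRNAs, an alternative added after seeing the data, gave the same folds by construction. Only the set of tested miRNAs differed there. The cause was not tested. The median of the members was -0.25 with spike-in scaling and -0.43 with normexp, beside -0.11 and -0.31 over all tested miRNAs.

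The count of 1 called miRNA over the whole array fell to 0 with each other scaling and background, each other probe summary, floor, filter and detection call, with outlier spots kept, with slide row as a block and without both dim arrays. On leaving out 1 array each it was 0 to 1, and without both dim arrays on the same 79 miRNAs it was 2, none of them a member. With replicate number as a block it was 1, and the log2 fold changes were unchanged by construction, with miR-100 at -0.58 (adjusted p = 0.679). The difference between the seed families was 0.59 with that block. The planned normexp on mean spot signals was not run, since the files used here give medians, which took their place. Signal over background limits miR-99b, which was detected only on control 2 and activin 1, and miR-100 on activin 2.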
